A study of Mus musculus with 16 samples.

Results

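Homozygous carriers of a tdTomato reporter allele of Zfp318 (Zfp318 ZSDAT/ZSDAT) hold antigen-binding B cells with a memory phenotype that can be sorted by whether they display the reporter. The members described here are the 8 homozygous libraries, of 16 in the series: 4 of tdTomato-negative cells (KOTN) and 4 of tdTomato-positive cells (KOTP), chosen by genotype and sort gate and called negative and positive libraries below. All 8 came from spleens of C57BL/6 mice that also carried AID-Cre, the B1-8hi heavy chain and GFP. The mice had been immunized with NP-OVA together with LPS and alum 7 days earlier. The cells were B220+, CD38+ and NIP-binding, and lacked CD138, GL7, FAS and surface IgD. The other 8 libraries were the same gates from heterozygous mice (Zfp318 ZSDAT/+, HetTN and HetTP), and are used only to set values beside the homozygous ones. Each library was made with Smart-seq2 from about 1000 cells. Whether the 4 libraries of a group are 4 animals is not stated in the labels. The p-values therefore reflect only the variation among these libraries, which may be technical.

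Zfp318 is a zinc finger protein that lets transcription continue from the Ighm into the Ighd exons, so mature naive B cells that lack it do not display IgD. NIP and NP are related haptens, and the B1-8hi heavy chain pairs with lambda light chains to bind them. AID-Cre places Cre recombinase under the gene for activation-induced deaminase, which B cells turn on after activation. Memory B cells are quiescent, long-lived cells. Those that express the transcription factor T-bet and the integrin CD11c are a recognised subset, distinct from follicular B cells, which recirculate and express CD23.

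Total counts were 7749799 to 9313481 in the 4 tdTomato-negative and 7992757 to 14326987 in the 4 tdTomato-positive libraries, and log2 CPM (per-million counts) correlated at 0.954 to 0.969 between homozygous libraries. No pair of replicates agreed within sampling noise. Zfp318, the targeted gene, was measured at 5.45, 0.441, 1.38 and 2.04 CPM in negative and 2.69, 2.79, 0.864 and 1.16 CPM in positive libraries. These levels are far below the means of 125 and 108 CPM in heterozygous tdTomato-negative and tdTomato-positive cells, and the homozygous groups overlapped (log2 fold change -0.32, SE 0.645, adjusted p = 0.919). They rest on 77 and 68 counts over 4 libraries each, and which part of the altered allele gave these reads was not tested. Ighd was at 41.8, 20.3, 23.9 and 24.1 CPM in negative and 21.5, 26.9, 15 and 26.1 CPM in positive libraries, and Ighm at 2828, 2821, 2636 and 2543 CPM in negative and 2502, 2477, 2802 and 2589.5 CPM in positive libraries. Neither passed the test (adjusted p = 0.688 and 0.793). In heterozygous cells Ighd averaged 962 CPM in tdTomato-negative and 957 CPM in tdTomato-positive libraries. Because naive B cells that lack Zfp318 do not display IgD, the gate on surface IgD cannot separate naive from memory cells in homozygous mice.

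Of 9975 genes tested, 239 (2.4%) differed between tdTomato-positive and tdTomato-negative homozygous cells with edgeR's quasi-likelihood test at an adjusted p of 0.05. Of these, 89 (0.892%) were higher and 150 (1.5%) lower in tdTomato-positive cells. More of the falls were large: 54 of the 150 exceeded 2-fold, against 6 of the 89 rises. The median log2 fold change over all genes tested was 0.00, with quartiles of -0.16 and 0.16. Without overlap between the 4 and 4 libraries there were 342 higher (3.43%) and 396 lower genes (3.97%), 7.4% in all. The count of calls was 128 without tdTomato-negative library 2, 148 without tdTomato-negative library 4, 158 without tdTomato-positive library 2 and 396 without tdTomato-negative library 1.

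**Figure D1:**
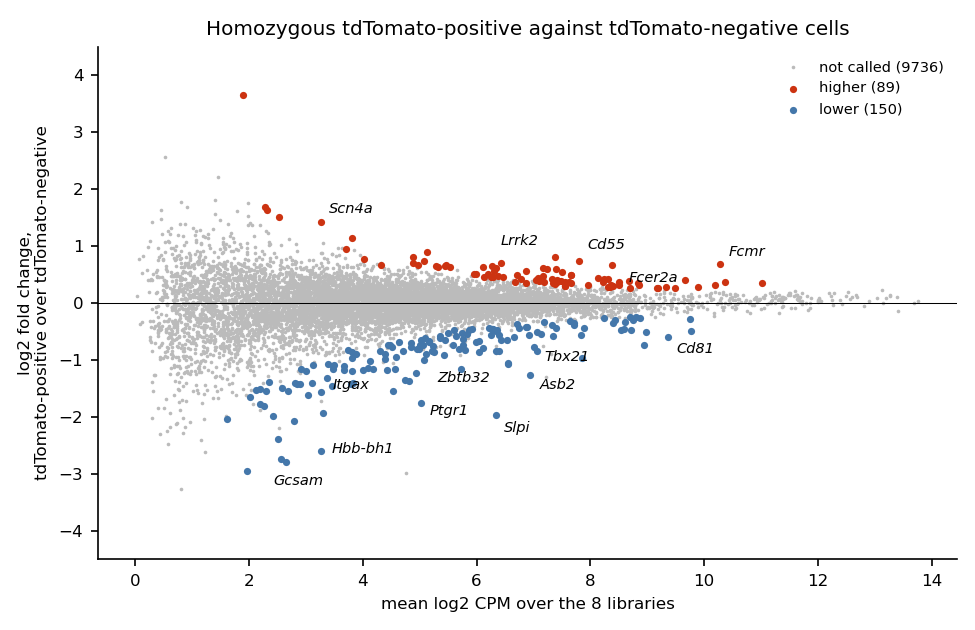
Each point is 1 of the 9975 genes tested, with its mean log2 CPM over the 8 homozygous libraries on the horizontal axis and the log2 fold change of tdTomato-positive over tdTomato-negative cells on the vertical axis. The 89 red points are genes called higher and the 150 blue points genes called lower. Of the called genes beyond 2-fold, 54 lie below 0 and 6 above, and Fcmr lies apart among abundant genes.

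Among genes of naive follicular B cells, called changes were all rises. Of 18 listed genes, all tested, 7 rose and none fell, with a median log2 fold change of 0.31 against 0.00 over all genes. Over all genes tested, 0.892% were called higher. The members that rose included Fcmr, Cd55, Fcer2a, Btla, Foxp1 and Bach2. Summed over the list, the level was 15372 to 16081 CPM in tdTomato-negative and 17205 to 18324 CPM in tdTomato-positive libraries. Leaving out single libraries gave 5 to 8 rises and no fall. The gate on surface IgD cannot keep naive cells out of these libraries, and the part of such cells in the rises was not tested.

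Fcmr, the Fc receptor for IgM (ENSMUSG00000042474, GRCm38 chromosome 1, 130865669 to 130880791, plus strand), was at 978, 942, 966 and 942 CPM in negative and 1443, 1553, 1599 and 1531 CPM in positive libraries. The 4 positive libraries stood clear of the 4 negative ones, which lay close together. The means were 957 ± 18.1 CPM in negative and 1531 ± 65.5 CPM in positive cells (SD, n = 4), or 0.68 (SE 0.061, adjusted p = 1.1e-07) as log2 fold change. Cd55, which protects cells from complement (ENSMUSG00000026399, GRCm38 chromosome 1, 130439027 to 130462744, minus strand), was at 166, 161, 169.9 and 170.1 CPM in negative and 289, 297, 295 and 232 CPM in positive libraries. Positive library 4 was lower than the other positive libraries, and still above every negative library (log2 fold change 0.74, SE 0.083, adjusted p = 3.79e-06).

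Fcer2a encodes CD23, the low-affinity IgE receptor of follicular B cells (ENSMUSG00000005540, GRCm38 chromosome 8, 3681737 to 3694175, minus strand). It was at 219.7, 254, 298 and 266 CPM in negative and 439, 380.0, 485 and 337 CPM in positive libraries, without overlap (log2 fold change 0.66, SE 0.105, adjusted p = 0.00133). Btla, an inhibitory receptor, was at 64.4, 66.4, 60.3 and 63.9 CPM in negative and 103, 89.9, 104 and 79.6 CPM in positive libraries (log2 fold change 0.56, SE 0.109, adjusted p = 0.00354). Foxp1, a transcription factor of mature B cells, was at 252, 257, 249.5 and 284 CPM in negative and 353, 344, 342 and 312 CPM in positive libraries (log2 fold change 0.37, SE 0.073, adjusted p = 0.00357).

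Among genes of T-bet and CD11c B cells, called changes were all falls. Of 12 listed genes 9 were tested, of which 5 fell and none rose, and all 9 had a log2 fold change below 0 (median -0.52). The share called lower over all genes tested was 1.5%. Tfec and Nr4a2 had no count in any homozygous library. The listed genes that were tested and not called were Cxcr3, Itgb1, Cd72 and Sox5. Single libraries left out gave 4 to 7 falls.

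Tbx21 encodes T-bet (ENSMUSG00000001444, GRCm38 chromosome 11, 97098071 to 97115331, minus strand) and was at 166, 162, 153 and 168 CPM in negative and 88.2, 105, 98.7 and 89.4 CPM in positive libraries. Every positive library lay well below every negative one, and the log2 fold change was -0.77 (SE 0.090, adjusted p = 7.39e-06). Itgax encodes CD11c, the integrin alpha chain (ENSMUSG00000030789, GRCm38 chromosome 7, 128129547 to 128150657, plus strand), and was at 36.5, 29.8, 29.5 and 22.9 CPM in negative and 10, 11.9, 10.8 and 19.1 CPM in positive libraries. Positive library 4 was nearest to the negative libraries, and the log2 fold change was -1.18 (SE 0.211, adjusted p = 0.00149). Fcrl5, an inhibitory Fc receptor-like protein, was at 194, 191, 205 and 184 CPM in negative and 147, 130.3, 143 and 147 CPM in positive libraries (log2 fold change -0.45, SE 0.081, adjusted p = 0.00161). Zeb2, a transcription factor that acts with T-bet in lymphocytes, was at 53.2, 52.9, 55.2 and 50.2 CPM in negative and 30.9, 40, 33.8 and 42 CPM in positive libraries, and did not overlap (log2 fold change -0.52, SE 0.133, adjusted p = 0.0299); its call was lost on leaving out any of 5 single libraries. Cxcr3, a chemokine receptor that T-bet induces, was at 566, 591, 695 and 597 CPM in negative and 506, 511, 552 and 498 CPM in positive libraries. The groups did not overlap, but the test was not passed (log2 fold change -0.24, SE 0.072, adjusted p = 0.0723).

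**Figure D2:**
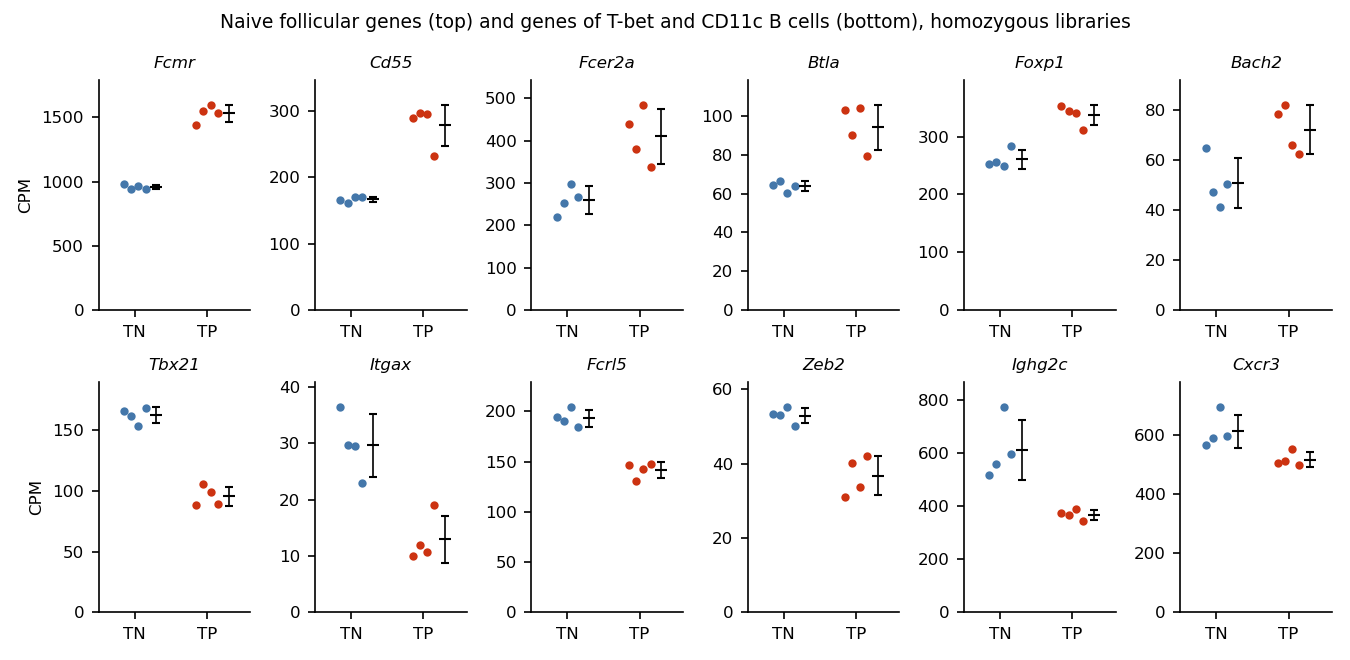
CPM of 12 genes in each of the 4 tdTomato-negative (TN, blue) and 4 tdTomato-positive (TP, red) homozygous libraries, with the mean and SD in black and every axis starting at 0. The upper row shows follicular genes, all called higher in TP, of which Bach2 overlaps between the groups. The lower row shows T-bet and CD11c genes, all lower in TP, of which Cxcr3 did not pass the test.

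Of 12 immunoglobulin constant genes, 1 rose and 1 fell, both of IgG, beside 0.892% and 1.5% of all genes tested. Ighg2c, an IgG2 heavy chain that T-bet favours, was at 519.6, 559, 775 and 597 CPM in negative and 375, 366, 389.5 and 345 CPM in positive libraries (log2 fold change -0.73, SE 0.094, adjusted p = 8.01e-05). Ighg1 was at 328, 409.6, 461 and 454 CPM in negative and 569, 499.8, 519 and 483 CPM in positive libraries, and passed narrowly (log2 fold change 0.32, SE 0.088, adjusted p = 0.0499). That call was lost without negative library 1 or 2 and without any single positive library. Ighg2b, at 1379.9 ± 184 CPM in negative and 1489.5 ± 73.9 CPM in positive cells (SD, n = 4), and Iglc1, the lambda 1 light chain, at 10368 ± 683 CPM in negative and 11215 ± 204 CPM in positive cells (SD, n = 4), did not pass. Reads of the IgG2 genes, and of the lambda constant genes, can map to near-identical copies, and the handling of such reads is not given in the sources used here.

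Regulators of B cell state also differed. Of 34 listed B lineage transcription factors, 3 rose (Foxp1, Foxo1 and Bach2) and 4 fell (Tbx21, Zbtb32, Mef2b and Zeb2). Among all genes tested, 0.892% rose and 1.5% fell. The count of rises was 1 without any 1 of negative libraries 2, 3 and 4 or positive library 2, and Foxo1 lost its call in these fits and without positive library 4. Zbtb32, which restrains recall responses of memory B cells (ENSMUSG00000006310, GRCm38 chromosome 7, 30589681 to 30598909, minus strand), was at 120.5, 118, 144 and 123 CPM in negative and 63.3, 56.7, 53.8 and 68.5 CPM in positive libraries. Every positive library lay below every negative one (log2 fold change -1.06, SE 0.106, adjusted p = 5.69e-07). Id2 and Id3 both block E proteins, and moved in opposite directions. Id2 was at 102, 109, 108 and 109.6 CPM in negative and 63, 52.4, 50.9 and 72.2 CPM in positive libraries (log2 fold change -0.84, SE 0.113, adjusted p = 5.65e-05). Id3 was at 153, 168, 174 and 174 CPM in negative and 225, 246, 240.4 and 235 CPM in positive libraries (log2 fold change 0.50, SE 0.077, adjusted p = 0.000281).

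Among memory B cell markers, 4 of 21 tested rose, among them Ccr6, Bach2 and Fcer2a, and 1, Zbtb32, fell, with a median log2 fold change of 0.06. The shares over all genes tested were 0.892% higher and 1.5% lower. Bach2 and Fcer2a also stand in the follicular list. The count of rises was 1 without negative library 2 or 4 or positive library 1, 2 or 3, and 2 without negative library 3. Ccr6, a chemokine receptor, was at 654 ± 50.8 CPM in negative and 784 ± 13.8 CPM in positive cells (SD, n = 4, log2 fold change 0.26, SE 0.067, adjusted p = 0.0322), a call lost in 7 of the 8 fits without 1 library, all but that without negative library 1.

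Marginal zone and B1 genes fell for 4 of 14 listed members, against 1.5% of all genes tested, with none rising and a median of -0.49. Asb2, a ubiquitin ligase subunit (ENSMUSG00000021200, GRCm38 chromosome 12, 103321142 to 103356001, minus strand), had the smallest adjusted p of all genes named. It was at 163, 163, 173 and 191 CPM in negative and 69, 75, 68.3 and 75.1 CPM in positive libraries, and each positive library held less than every negative one (log2 fold change -1.26, SE 0.091, adjusted p = 2.58e-09). Plac8 was at 1016 ± 56.6 CPM in negative and 723 ± 77.5 CPM in positive cells (SD, n = 4, log2 fold change -0.49, SE 0.074, adjusted p = 0.000223). S1pr3, a sphingosine-1-phosphate receptor, was at 40.3 ± 4.88 CPM in negative and 23 ± 2.76 CPM in positive cells (SD, n = 4, log2 fold change -0.81, SE 0.155, adjusted p = 0.00275). Cd9, a tetraspanin, was at 49.6 ± 6.08 CPM in negative and 32.1 ± 4.03 CPM in positive cells (SD, n = 4, log2 fold change -0.62, SE 0.141, adjusted p = 0.0138), a call lost without negative library 3 or positive library 2.

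The germinal center program fell in part, in cells sorted as negative for GL7 and FAS. Of 17 tested genes, 5 fell, against 1.5% of all genes tested, and none rose, with a median of -0.56. Mef2b, a transcription factor of germinal center B cells, was at 78.6, 58.8, 65.4 and 87.7 CPM in negative and 33.6, 28.8, 43 and 24.6 CPM in positive libraries (log2 fold change -1.16, SE 0.160, adjusted p = 0.00011). Gcsam was at 10.9, 7.06, 14.9 and 10.1 CPM in negative and 0.244, 1.27, 2.59 and 1.89 CPM in positive libraries, low in every library, and differed by -2.80 (SE 0.429, adjusted p = 0.000281) on the log2 scale. Neil1, a DNA glycosylase, was at 87.5, 84.6, 90.5 and 77.1 CPM in negative and 53.6, 44.1, 49.2 and 41.2 CPM in positive libraries (log2 fold change -0.86, SE 0.116, adjusted p = 6.35e-05). Nuggc was at 53.1 ± 11 CPM in negative and 33.8 ± 3.24 CPM in positive cells (SD, n = 4), and Fas, the transcript of the gated protein, at 89.8 ± 9.36 CPM in negative and 65.9 ± 4.19 CPM in positive cells (SD, n = 4), with log2 fold changes of -0.66 and -0.45. The fall of Nuggc was lost without any 1 of negative libraries 2, 3 and 4 or positive library 4, and that of Fas without negative library 3 or 4 or positive library 1 or 4. Leaving out single libraries gave 3 to 7 falls.

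Called cell cycle genes in the replication and mitosis lists all fell, where 1.5% of all genes tested were called lower. In the list for DNA replication and G1/S, 8 of 39 genes fell, none rose and the median was -0.41. In the list for G2/M and mitosis, 9 of 39 tested genes fell, none rose and 37 had a log2 fold change below 0 (median -0.66). The G2/M count was 2 without negative library 2, 3 or 4 or positive library 2, 3 without positive library 3, 4 without positive library 4 and 16 without positive library 1. The summed G2/M level was 1192 to 1552 CPM in negative and 891 to 1246 CPM in positive libraries, and the groups overlapped through negative library 1 and positive library 1. The summed G1/S level did not overlap, at 1863 to 2150.1 CPM against 1514 to 1634 CPM.

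The promoters of mitotic genes often hold the letters CCAAT, to which NF-Y binds, and TTTGAA, the cell cycle homology region element. On either strand of the 300 bases around each start (RefSeq, GRCm38.p6, 250 bases before to 50 after), CCAAT was found in 24 of the 32 G2/M promoters matched (75%), against 39.7% of the promoters of all genes tested and 37.9% of all promoters. TTTGAA was found in 24 of 32 (75%), against 11.8% and 18.1%. Of the 7 matched promoters of called G2/M genes, 5 held CCAAT and 4 held TTTGAA. The lists were chosen by function, so these shares describe the lists and not the change. The windows of 3 of the 4 G2/M members named by rule are printed because they differ in these letters: Mki67 at chr7:135716330-135716629 and Cdca8 at chr4:124936868-124937167, both on the minus strand, and Mad2l1 at chr6:66534971-66535270 on the plus strand. Capitals mark each CCAAT or TTTGAA on either strand (ATTGG and TTCAAA on the printed strand), and each sequence reads 5′ to 3′ along its gene.
Mki67: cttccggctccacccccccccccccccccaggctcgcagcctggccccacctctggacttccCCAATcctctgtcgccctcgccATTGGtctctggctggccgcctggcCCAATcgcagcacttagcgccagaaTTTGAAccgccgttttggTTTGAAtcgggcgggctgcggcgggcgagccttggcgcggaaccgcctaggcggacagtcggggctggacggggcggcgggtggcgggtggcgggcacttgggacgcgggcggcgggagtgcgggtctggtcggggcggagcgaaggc
Cdca8: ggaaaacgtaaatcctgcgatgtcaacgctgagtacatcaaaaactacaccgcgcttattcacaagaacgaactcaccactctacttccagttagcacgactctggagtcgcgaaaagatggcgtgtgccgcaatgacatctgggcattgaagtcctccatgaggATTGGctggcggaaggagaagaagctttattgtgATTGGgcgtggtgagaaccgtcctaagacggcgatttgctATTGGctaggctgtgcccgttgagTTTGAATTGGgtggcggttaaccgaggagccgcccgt
Mad2l1: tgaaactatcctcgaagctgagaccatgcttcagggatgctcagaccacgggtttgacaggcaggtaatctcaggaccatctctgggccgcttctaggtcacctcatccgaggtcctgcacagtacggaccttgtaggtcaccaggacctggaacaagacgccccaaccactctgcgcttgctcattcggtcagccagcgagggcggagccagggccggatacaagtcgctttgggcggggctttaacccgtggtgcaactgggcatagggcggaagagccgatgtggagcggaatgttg
The Mki67 window holds 3 CCAAT and 2 TTTGAA matches, the Cdca8 window 4 and 1, which overlap in part, and the Mad2l1 window neither. The window of Nuf2, not printed, also holds neither. GENCODE places the starts of Mad2l1 and Cdca8 at 66535390 and 124939311, outside these windows, so the matches hold for the RefSeq starts only.

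All 3 of these genes fell. Mki67, the Ki-67 proliferation antigen, was at 106, 126, 84 and 105 CPM in negative and 74, 77.3, 50.9 and 67.2 CPM in positive libraries (log2 fold change -0.65, SE 0.130, adjusted p = 0.00535). Cdca8, the chromosomal passenger protein borealin, was at 28.4, 42.3, 47.9 and 40 CPM in negative and 26.3, 16.1, 24.3 and 28.5 CPM in positive libraries (log2 fold change -0.73, SE 0.182, adjusted p = 0.0264). Negative library 1 lay just below positive library 4. Mad2l1, a spindle checkpoint protein, was at 30.3, 38.9, 43.7 and 44.6 CPM in negative and 28.7, 23.4, 20.5 and 27.1 CPM in positive libraries (log2 fold change -0.66, SE 0.163, adjusted p = 0.0255). The calls of Cdca8 and Mad2l1 were lost without negative library 2, 3 or 4 or positive library 2 or 3.

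Nuf2, a kinetochore subunit, was at 9.87, 20.6, 16.3 and 16.8 CPM in negative and 6.96, 3.04, 6.7 and 6.4 CPM in positive libraries (log2 fold change -1.45, SE 0.283, adjusted p = 0.00354). In the replication list, Mcm6 was at 97.1, 95.1, 126 and 137 CPM in negative and 78.8, 63, 71.1 and 75.8 CPM in positive libraries and Mcm5 at 62.7, 73.6, 60.2 and 72.7 CPM in negative and 32.5, 41.5, 49.6 and 37.5 CPM in positive libraries; both encode subunits of the replicative helicase. Mcm6 differed by -0.66 (SE 0.118, adjusted p = 0.00155) and Mcm5 by -0.74 (SE 0.135, adjusted p = 0.00174) on the log2 scale. Lig1, the replicative DNA ligase, was at 47.8 ± 5 CPM in negative and 26.6 ± 5.02 CPM in positive cells (SD, n = 4) and Tk1, thymidine kinase, at 59.7 ± 8.31 CPM in negative and 35.8 ± 5.24 CPM in positive cells (SD, n = 4), with log2 fold changes of -0.84 and -0.74. Ccnd3, a D cyclin of germinal center and mature B cells, was at 145, 138, 169 and 173 CPM in negative and 119, 99.9, 122 and 97.5 CPM in positive libraries (log2 fold change -0.51, SE 0.100, adjusted p = 0.00354). It was the only call among 14 tested D cyclins, CDK inhibitors and pocket proteins, where 2.4% of all genes tested were called. None of 17 replication-dependent histone genes was called by edgeR; 3 had an unadjusted p under 0.05, and DESeq2 and voom called 2 each.

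**Figure D3:**
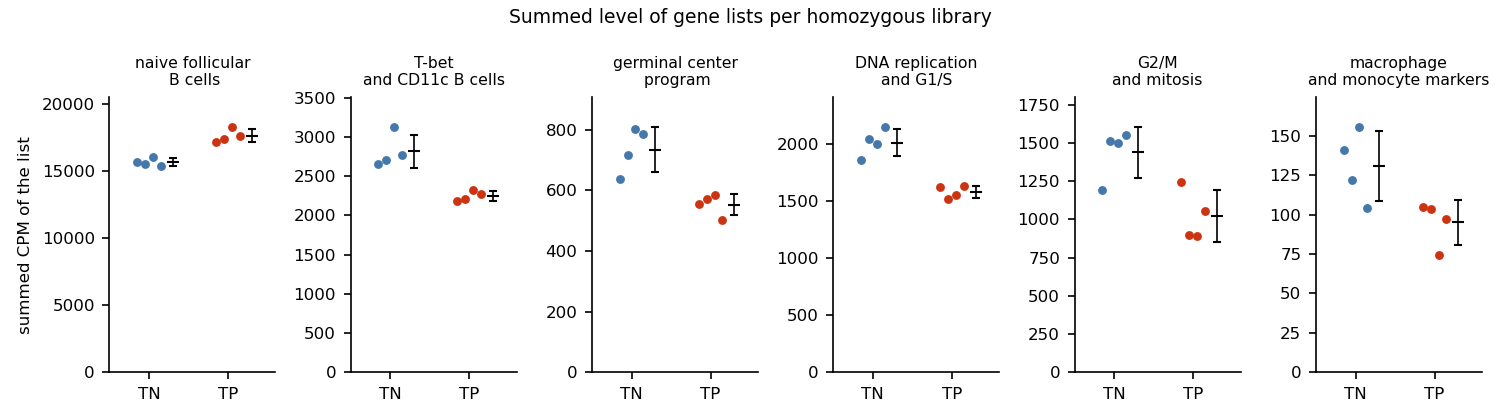
Summed CPM of 6 gene lists in each homozygous library, tdTomato-negative (TN, blue) and tdTomato-positive (TP, red), with mean and SD in black and axes starting at 0. The follicular list is higher in TP and the T-bet, germinal center and G1/S lists are lower without overlap. The G2/M and macrophage lists overlap between the groups.

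Genes that hold cells in quiescence rose for 3 of 23 members (Btg2, Btg1 and Foxo1) with none falling and a median of 0.08. The share called higher over all genes tested was 0.892%. Btg2, which slows the cell cycle, was at 191, 171, 166 and 163 CPM in negative and 219.8, 223, 246 and 206 CPM in positive libraries (log2 fold change 0.37, SE 0.081, adjusted p = 0.00967). The count was 0 without negative library 4 and 1 without negative library 2 or positive library 3 or 4.

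Fc receptors split by direction. Of 10 tested, Fcmr, Fcer2a and Fcgrt rose, and Fcgr2b and Fcrl5 fell, the same counts in each fit without 1 library. Fcmr and Fcer2a also stand in the follicular list, and Fcrl5 in the T-bet list. Among all genes tested, 0.892% rose and 1.5% fell. Fcgrt, the neonatal Fc receptor that recycles IgG, was at 77.6, 65, 57.9 and 60.2 CPM in negative and 95.8, 132, 111 and 86.8 CPM in positive libraries (log2 fold change 0.70, SE 0.124, adjusted p = 0.00136). Fcgr2b, the inhibitory IgG receptor, was at 527, 615, 669 and 566 CPM in negative and 440.3, 385, 414 and 427 CPM in positive libraries (log2 fold change -0.51, SE 0.076, adjusted p = 0.00017).

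Adhesion genes moved in both directions, with 4 of 20 higher (among them Itgb7, Selplg and Icam2) and 4 lower (Itgax, Itgb2, Cd9 and Cd81). Beside these stand 0.892% higher and 1.5% lower over all genes tested. Itgb7, the beta chain of the gut homing integrin, was at 116, 112, 121 and 129 CPM in negative and 187, 196, 171 and 168 CPM in positive libraries (log2 fold change 0.59, SE 0.086, adjusted p = 0.00014). Itgb2, the beta chain that pairs with CD11c, was at 265, 272, 295 and 268 CPM in negative and 199, 202, 197 and 209 CPM in positive libraries (log2 fold change -0.45, SE 0.073, adjusted p = 0.000533). Cd81, a tetraspanin, was at 733, 760.4, 857 and 820.3 CPM in negative and 520.1, 483, 566 and 532 CPM in positive libraries (log2 fold change -0.59, SE 0.071, adjusted p = 8.15e-06). The count of rises was 1 without negative library 2 or positive library 2.

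Calls also came from further lists, where 2.4% of all genes tested were called and a single call describes that gene and not its list. Tlr3, the receptor for double-stranded RNA, was at 40.9, 40.6, 43.3 and 35.8 CPM in negative and 14.9, 11, 19.5 and 16.1 CPM in positive libraries and was the only call among 19 Toll-like receptors and adaptors (log2 fold change -1.38, SE 0.175, adjusted p = 2.33e-05). Ackr2, a scavenging chemokine receptor, was at 99.6 ± 9.41 CPM in negative and 67.4 ± 5.99 CPM in positive cells (SD, n = 4, log2 fold change -0.56). H2-Ob, which restrains peptide loading of MHC class II, was at 977, 1012, 1113 and 1047 CPM in negative and 1309.8, 1229.8, 1381 and 1241 CPM in positive libraries (log2 fold change 0.31, SE 0.065, adjusted p = 0.00588). Traf1, Il2rb, H2-Q7, Pkm, Sec61a1, Dusp1, Ctsb and Exo1 fell and Vim rose, with log2 fold changes of -0.36, -1.41, -0.27, -0.29, -0.47, -1.15, -0.32, -1.61 and 0.28. Each of these 9 calls was lost without at least 1 single library.

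**Figure D4:**
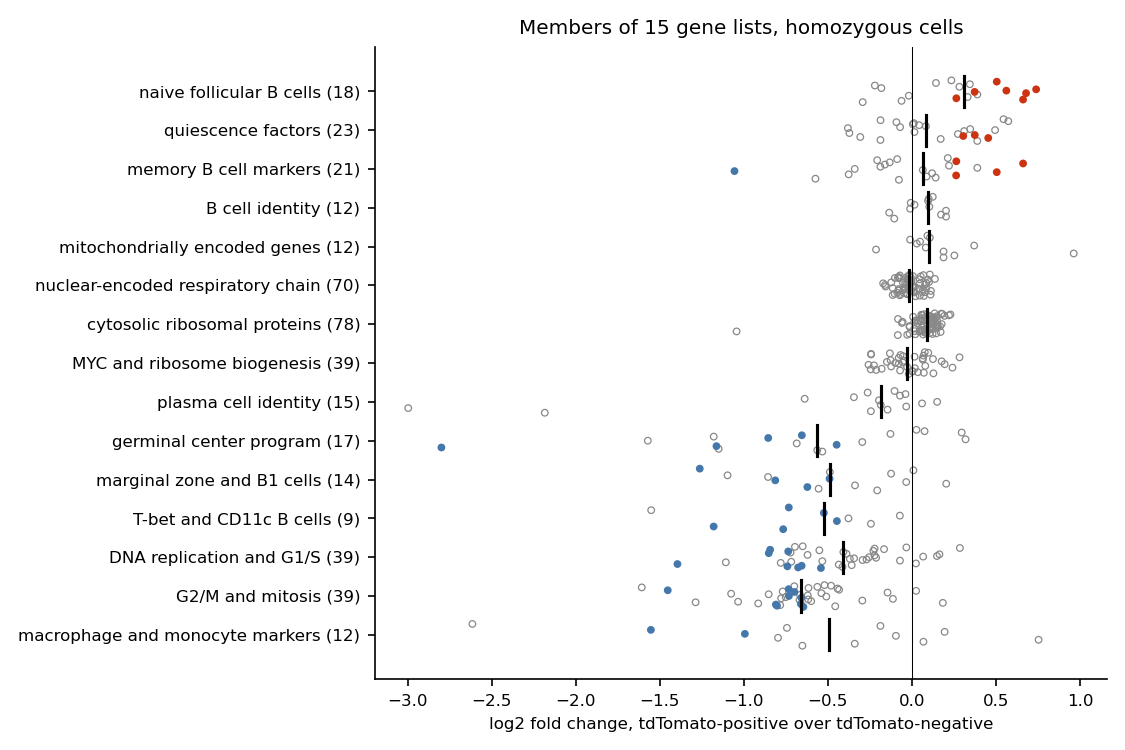
Log2 fold change of every tested member of 15 gene lists (number tested in parentheses), with called genes filled in red (higher) or blue (lower), others open, and the median as a black bar. Follicular members lie mostly to the right of 0 and cell cycle, T-bet and germinal center members mostly to the left. Respiratory chain members lie between -0.17 and 0.14, and ribosomal members lie close to 0 apart from Rpl13a at -1.04, which was not called.

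By size alone, the 15 largest rises among genes averaging log2 CPM 3 or more ran from 1.43 for Scn4a to 0.67 for Map1lc3a. Scn4a, a voltage-gated sodium channel, was at 4.93, 2.87, 4.89 and 7.49 CPM in negative and 15.9, 11.7, 15.3 and 11.6 CPM in positive libraries (log2 fold change 1.43, SE 0.288, adjusted p = 0.00476). Lrrk2, a kinase, was at 135, 129, 125 and 93.1 CPM in negative and 193, 231, 217 and 201 CPM in positive libraries (log2 fold change 0.81, SE 0.100, adjusted p = 1.74e-05). Glcci1 was at 24.5, 25.7, 24.3 and 21.9 CPM in negative and 50.7, 44.3, 45.2 and 40.4 CPM in positive libraries (log2 fold change 0.90, SE 0.144, adjusted p = 0.000417). Lgals3, galectin-3, was at 18.6, 18.7, 24.5 and 22.9 CPM in negative and 38.6, 43.1, 39.8 and 26.9 CPM in positive libraries (log2 fold change 0.80, SE 0.173, adjusted p = 0.00831). The others were Fam101b, Gpt, Bbs9, Cd55, Hip1r, Clec2i, Fcgrt, Fcmr, Fam214a and Grap2. Of the 15 rises, 8 lost their call in at least 1 of the 8 fits that left out a library: Bbs9 in 6, Map1lc3a in 7, Gpt in 5, Hip1r and Clec2i in 4, Fam101b in 2, and Lgals3 and Grap2 in 1, the fit without negative library 2.

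The 15 largest falls ran from -2.60 for Hbb-bh1 to -1.19 for Cdkn3. Slpi, a secreted inhibitor of leukocyte proteases (ENSMUSG00000017002, GRCm38 chromosome 2, 164354070 to 164389095, minus strand), was at 93.5, 122, 168 and 129 CPM in negative and 33.2, 47.2, 32 and 19.6 CPM in positive libraries (log2 fold change -1.97, SE 0.285, adjusted p = 0.0131). The groups did not overlap, and the call was lost without positive library 1 or 3. Ptgr1, an enzyme that inactivates leukotrienes and prostaglandins (ENSMUSG00000028378, GRCm38 chromosome 4, 58965439 to 58987119, minus strand), was at 42.7, 62.8, 43 and 52.1 CPM in negative and 13.9, 14.7, 13 and 17.6 CPM in positive libraries (log2 fold change -1.75, SE 0.168, adjusted p = 2.64e-07). Pla2g7, a secreted phospholipase, was at 37.5, 42.9, 46.2 and 43.9 CPM in negative and 21.3, 12.4, 14.7 and 23.6 CPM in positive libraries (log2 fold change -1.23, SE 0.182, adjusted p = 0.00017). Alyref, an mRNA export factor, was at 21.2, 32.3, 36.3 and 46.4 CPM in negative and 6.6, 10.1, 14 and 15.3 CPM in positive libraries (log2 fold change -1.55, SE 0.246, adjusted p = 0.000669). Hbb-bh1, an embryonic globin, was at 11.7, 11.2, 19.9 and 22.4 CPM in negative and 4.89, 0.507, 4.32 and 1.16 CPM in positive libraries; other globin genes are near copies, so its reads are uncertain (log2 fold change -2.60, SE 0.526, adjusted p = 0.0214), and the call was lost without negative library 3. The others were Fam186b, Exo1, Cln8, Nuf2, Hspa2, Marcks, Tlr3, Lrrc25 and Asb2.

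No member of several housekeeping and identity lists was called by edgeR. Among 12 B cell identity genes there was no call (3 at an unadjusted p under 0.05, none by DESeq2 and 1 by voom), and their summed level was 31214 to 32281 CPM in negative and 30277 to 35556 CPM in positive libraries. None of 27 B cell receptor signaling genes was called (4 unadjusted, none by DESeq2, 1 by voom). Of 12 mitochondrially encoded genes none was called (5 unadjusted, 1 by DESeq2, 2 by voom). Of 70 nuclear-encoded respiratory chain genes none was called (2 unadjusted, none by either other tool), with values from -0.17 to 0.14. Of 78 cytosolic ribosomal proteins none was called (13 unadjusted, none by DESeq2, 2 by voom), 69 were above 0 and the median was 0.09. The lowest of them was Rpl13a, at -1.04 (adjusted p = 0.433). Without negative library 1, 4 of the ribosomal and 3 of the mitochondrially encoded genes were called higher. None of 15 plasma cell genes was called (6 unadjusted, 2 by DESeq2 and 2 by voom), and none of 28 interferon-stimulated genes (5 unadjusted, 2 by DESeq2 and 1 by voom).

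Some markers of other cell types had no count in any homozygous library. Of T cell markers, Cd3e, Cd4, Cd8a, Cd28 and Il7r had no count. Their summed list, 534 to 596 CPM in negative and 627 to 674 CPM in positive libraries, was nearly all Cd2 with some Lck. Cd3d averaged 0.671 CPM in negative and 0.826 CPM in positive libraries. Among NK cell markers Ncr1, Gzmb and Klrk1 had no count. The list summed to 5.45 to 8.27 CPM in negative and 4.03 to 11.9 CPM in positive libraries, most of it Prf1, which was not called. Dendritic cell markers summed to 2668 to 3069 CPM and 3018 to 3271 CPM, nearly all of it Ly6d, which B cells also express. Flt3 averaged 50.6 CPM in negative and 47.3 CPM in positive libraries, and Xcr1 and Clec10a had no count. Of stromal and endothelial markers Col1a1, Col1a2 and Col3a1 had no count, and the list summed to 132 to 169 CPM and 146 to 185 CPM, nearly all Pecam1. No marker of the neutrophil, the macrophage and monocyte, or the erythroid and platelet list was at 0 in all libraries. Neutrophil markers summed to 1.06 to 2.34 CPM in negative and 0.727 to 4.75 CPM in positive libraries, and none was tested. Erythroid and platelet markers summed to 15.2 to 21.3 CPM in negative and 10.6 to 15.3 CPM in positive libraries, which overlapped, and none of the 3 tested was called (1 unadjusted, none by DESeq2 or voom, median -0.43). The globin Hbb-bh1 fell in the same direction, and the part of such cells in its fall was not tested. Macrophage and monocyte markers summed to 104 to 156 CPM in negative and 74.5 to 105 CPM in positive libraries. Of these 12 markers 2 fell: Cd68 (log2 fold change -0.99) and Hmox1 (-1.55, a call lost in 7 of 8 fits without 1 library). Of the 12 markers, 9 had a log2 fold change below 0 and 3 above 0 (median -0.50). Of those above 0, Lyz2 averaged 6.35 CPM in negative and 10.7 CPM in positive libraries. The full sums overlapped only through negative library 4 (104.2 CPM) and positive library 1 (104.8 CPM). The other 10 markers summed to 55.8 to 100.0 CPM in negative and 45.7 to 82.7 CPM in positive libraries, and overlapped. Taking out the called markers makes such an overlap more likely. These levels moved in the direction of Slpi, Ptgr1, Lrrc25 and Pla2g7, and their part in those falls was not tested. In bulk libraries, fewer cells of a type and less RNA per cell cannot be told apart, which holds for every group above.

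The same sort in heterozygous mice gave no call among 9704 genes tested with edgeR (0%, 487 at an unadjusted p under 0.05), where the libraries spread more (biological coefficient of variation 0.844 against 0.2). Of the 89 genes higher in homozygous tdTomato-positive cells, 34 had the same sign in heterozygous cells, with a median of -0.07. Of the 150 lower genes 136 were tested there, and 60 had the same sign (median 0.04). Over all genes, 51.6% lay above 0. The difference of the tdTomato effect between the genotypes passed for 13 of 10687 genes (0.122%). Genotype coincides with the deposited table, so a difference of batch or counting cannot be told apart from genotype. It passed for Fcmr, at 0.86 (SE 0.146, adjusted p = 0.0368), with log2 fold changes of 0.68 in homozygous and -0.19 (SE 0.149) in heterozygous cells. It passed for Fcgrt, at 2.04 (SE 0.391, adjusted p = 0.0452), with 0.70 and -1.34 (SE 0.397). For Tbx21 the difference was -0.78 (adjusted p = 0.926), and for Asb2 -1.43 (adjusted p = 0.838), so neither is shown to differ. Leaving out any 1 of the homozygous libraries left 1 gene, so Fcmr and Fcgrt did not both keep their calls in any such fit.

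**Figure D5:**
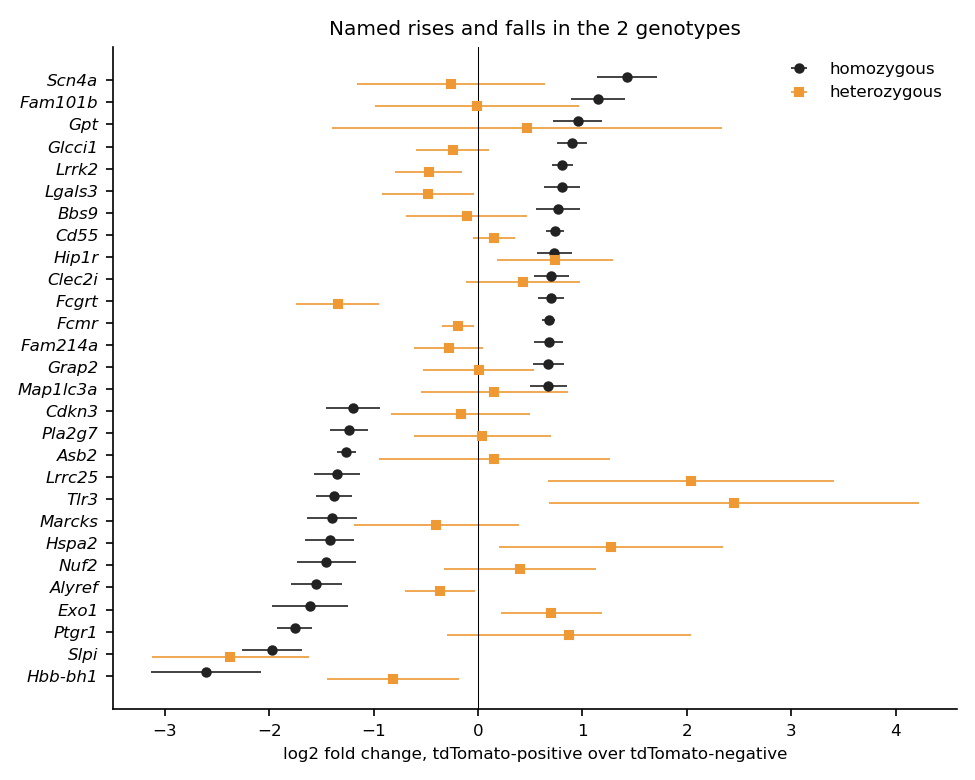
Log2 fold change of tdTomato-positive over tdTomato-negative cells with its SE, for 28 of the 30 largest rises and falls, in homozygous (black circles) and heterozygous libraries (orange squares). The heterozygous errors are wider and include 0 for most genes, and none of the heterozygous values passed the test.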

How the data were processed

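RNA of sorted splenic B cells was sequenced with Smart-seq2, which primes with oligo-dT. Trimming with Trim Galore, alignment to mm10 with STAR 2.2.0 and counting with featureCounts are named in the submitters' processing notes. Strand, read pair and multiple mapping settings are not given in the sources used here. The authors deposited 1 table per genotype, whose headers give the values used here as raw counts in coding sequence. The authors' per-million columns, ratios and p-values were not used.

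From the deposited counts, 4 entries of 2 duplicated names were left out (22676 genes remain in the homozygous table). The 8 homozygous libraries were fitted alone with edgeR 4.0.16 (R 4.3.3, limma 3.58.1): TMM scaling, filterByExpr by group and the robust quasi-likelihood test, with Benjamini-Hochberg adjustment over all 9975 genes tested, called under 0.05. CPM is the per-million count of the TMM-scaled library total. The difference between genotypes was tested in a fit of all 16 libraries. Counts carry no molecular identifiers, so counting intervals cover counting error only. The homozygous fit, the heterozygous fit and that of the difference were each run on simulated counts, and the alternative settings were not. The counts were drawn with dispersions estimated from these same libraries, so the simulation cannot test the model itself.

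The members, the 53 gene lists and the tests were chosen with earlier results of these data known, so no list is independent evidence of its direction. Lists share members, so the same call can count in several of them. Examples are Fcmr, Fcer2a, Fcrl5, Itgax, Cd9, Tbx21, Zeb2, Foxp1, Foxo1, Bach2, Zbtb32 and Mef2b. Named were Zfp318, the 15 largest rises and 15 largest falls among called genes whose groups did not overlap and whose mean log2 CPM was 3 or more, and up to 4 called members per list with the smallest p. Predicted genes, pseudogenes and antigen receptor segments were left out. Members of the immunoglobulin constant, T-bet and Zfp318 lists could be named without a call. Further called members, such as Selplg, Icam2 and Bach2, are named to complete a count and were chosen after their values were seen. Gene positions are from GENCODE M21 (GRCm38), matched once by symbol for 103 of 105 genes. Other settings tried were scaling by RLE or upper quartile, testing unfiltered genes or those at 5 CPM in 4 libraries, DESeq2 1.42.0, voom with sample weights, a replicate block, a fit of 16 libraries and each library left out. A few listed genes count in these totals and are not reported here by name.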

Additional observations from a re-analysis of the deposited data

Results flagged for a closer look

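Among 192 sets of 4 libraries examined for the named genes, 8 held a library far from the other 3, where chance gives about 1 in 20. In tdTomato-positive library 4, Gpt was at 19.1 CPM (others 15.8 to 16.2) and Cd55 at 232 CPM (others 289 to 297). In tdTomato-positive library 2, Nuf2 was at 3.04 CPM (others 6.4 to 6.96), Hspa2 at 5.57 CPM (others 7.82 to 8.07) and Cd68 at 15.1 CPM (others 24.5 to 25.5). Among tdTomato-negative libraries, Cln8 was at 17 CPM in library 4 (others 13 to 13.1), Cd9 at 58.7 CPM in library 3 (others 46.4 to 46.8) and Ctsb at 189 CPM in library 1 (others 227 to 234).

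The tdTomato effect differed between the genotypes, by edgeR's test of the difference, for 4 named genes. Leaving out any 1 homozygous library left 1 gene called, so at most 1 of these 4 kept its call in each such fit. With the replicate block 2 genes were called in all. The differences of log2 fold changes, homozygous minus heterozygous, were 2.04 for Fcgrt, 0.859 for Fcmr, 1.02 for Iglc1 and -8.91 for Itgax (adjusted p = 0.0452, 0.0368, 0.0429 and 7.4e-05). For Itgax the heterozygous tdTomato-negative libraries held 2 counts and the tdTomato-positive ones 612, a ratio of 274 with an exact interval of 75.4 to 2260 at 95% that covers counting error only, so the fitted size depends on the prior count. The homozygous libraries held 1030 and 538 counts of Itgax. For Iglc1 neither genotype passed alone, with log2 fold changes of 0.11 and -0.92.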

How the results depend on the processing

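None of the 239 called genes changed direction in any alternative run that tested it. For named genes without a call, a change of sign was counted only where the alternative run called the gene, and there was none. The 239 calls became 237 with RLE and with upper quartile scaling, 323 without a filter, 244 with the 5 CPM filter, 358 with DESeq2 and 354 with voom. In the fit of 16 libraries 2 genes were called, 1 higher and 1 lower, of which Fcmr was among the 239. Rises numbered 138 with DESeq2 and 145 with voom, against 89. Leaving out each library in turn gave 128 to 396 calls, 44 to 174 rises and 84 to 222 falls. The same-numbered libraries of the homozygous groups deviated together only weakly (correlations of 0.010, 0.004, 0.072 and 0.021). The same-numbered library was the best partner of negative library 3, and of positive libraries 1, 3 and 4. With 4 libraries a group, these values cannot tell whether equal numbers mark a shared animal or batch. With the replicate block 227 genes were called, of which 202 were among the 239, and 9 of 79 called named genes lost their call. For the difference between genotypes, 13 calls became 194 with DESeq2, 7 with voom and 2 with the replicate block, and 1 to 41 on leaving out each library. The cause of these changes was not tested. The heterozygous libraries spread more (biological coefficient of variation 0.844 against 0.2), and the part of that spread in the difference was not tested. Genes with few counts, such as Zfp318 and Sox5, have wide errors. The fit of the difference without a filter was not run.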

Other observations

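The genes of this paragraph and the next were chosen after their values were seen. Spectrins and adducins form the skeleton under the plasma membrane, and 3 of the 4 tested rose in tdTomato-positive cells, where 0.892% of all genes tested were called higher. Since the family was chosen for these values, the count is a description only. Sptbn1 was at 69.3 CPM in negative and 96.3 CPM in positive cells (log2 fold change 0.48, adjusted p = 0.00685). Add3 was at 138 and 184 CPM (0.42, adjusted p = 0.0049) and Sptan1 at 127 and 165 CPM (0.37, adjusted p = 0.0292), while Add1 had a log2 fold change of 0.13 (adjusted p = 0.767). Of 8 tested GTPases of the immunity-associated protein family, which support lymphocyte survival, all were above 0 (median 0.17), and 2 rose: Gimap3, from 259 to 348 CPM, and Gimap7, from 357 to 466 CPM.

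Cd36, a scavenger receptor, had a log2 fold change of -0.83, Tyrobp, a signaling adaptor, -0.56, and Cfp, properdin, -0.48. They fell beside the macrophage markers Cd68 and Hmox1. Of the 12 markers in that list, 9 lay below 0 and 3 above, among them Lyz2. The summed list overlapped narrowly between the groups, at means of 131 CPM in negative and 95 CPM in positive cells. Cfp alone averaged 431 CPM in negative and 310 CPM in positive cells. The part of such cells in these falls was not tested. Single further genes that fell were Stmn1 (-0.85), Hmgb2 (-0.47) and H2afz (-0.46).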
